A study of Mus musculus with 2 samples.

Results

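The protease system of the uterus between implantation sites was described through 38 genes for matrix metalloproteinases, their inhibitors, ADAM and ADAMTS proteases, cathepsins, calpains and related peptidases. They were a fixed list of gene names, chosen with earlier results of these data known. Every array probe set annotated to exactly 1 of them was taken. Of the 38 genes, 36 were on the array, where 12393 genes in all had at least 1 such probe set, and they held 70 probe sets. Mmp15 and Adamts2 had none. The tissue was uterus dissected between the implantation sites of 4-month-old females on day 8 of pregnancy, of C57Bl/6J X OLA129 background. There were 2 groups, control and Cbs null (homozygous for the deficiency, by the submitters' account), with 1 Affymetrix array in each. The gene Cbs codes for cystathionine beta-synthase, the enzyme that joins homocysteine to serine. The labels state neither the Cbs genotype of the control beyond "control" nor whether a sample was 1 uterus or a pool.

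Matrix metalloproteinases are zinc enzymes that cut collagens and other matrix proteins, and the TIMP proteins block them by occupying the active site. ADAM proteases release the outer parts of membrane proteins, ADAMTS proteases cut proteoglycans, and cathepsins degrade proteins mostly inside lysosomes. In the pregnant uterus these enzymes and inhibitors take part in the remodelling of stroma and vessels around the embryo. The labels place the tissue sampled here between the implantation sites.

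A signal is the brightness of a probe set in array units. Signals below a floor of 43.2 units, the 40th percentile over the pair of arrays, were set to it, and each log2 ratio sets Cbs null over control. Each gene was represented by its brightest probe set. With 1 array per group no test was possible, so no p-value is given and differences are described by size. The technical SD of such a ratio, taken from pairs of probe sets for 1 gene, was 0.22 over 2757 genes. It holds the disagreement between probe sets on the same pair of arrays. Error shared by the probe sets of an array is not in it, nor is variation among mice. It also depended on brightness. Pairs in which both signals were bright gave 0.18 over 1272 genes. Pairs with a dim member, less than 4-fold the floor, gave 0.24 over 1485 genes. The single value of 0.22 was used for weak and bright genes alike. Brightness also depends on the probe, so signals are compared between arrays and not between genes.

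The arrays were on one scale, with median signals of 74.55 in the control and 75.6 in the Cbs null sample. The brighter Cbs probe set read 79.8 and 42.6, the second value under the floor. The other Cbs probe set, at 39.8 and 25.1, was under the floor on both arrays. Defining uterine genes were present, with Hoxa10 at 1188 and 1359 and Hoxa11 at 1082 and 1077, whereas the estrogen receptor gene Esr1 was below the floor on both arrays and the progesterone receptor gene Pgr read 49.1 and 36.8. All 6 trophoblast markers on the array were below the floor on both arrays. Marker sums of some other cell types were nearly level and those of others differed. The 12 uterine stroma and decidua markers summed to 18710 and 19571, and the 8 endothelium markers to 2161 and 2313. The 11 uterine epithelium markers summed to 5089 and 12775, or 3855 and 6556 without Spink1, with Krt7 nearly level at 450 and 468. The 14 macrophage and dendritic markers summed to 5367 and 7741, the 9 smooth muscle markers to 34694 and 27419, and the 5 adipocyte markers, all lower, to 10119 and 7722. The 12 uterine natural killer markers summed to 1785 and 373, with Ncr1 and Il2rb below the floor on both arrays. The 7 granzyme genes carried that difference, since the other 5 summed to 293 and 295. Within the stroma and decidua list, the decidual prolactin family gene Prl8a2 read 424 and 5.8. Signals of Prl8a2 and of granzymes were thus present in the control sample.

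Only a few of the genes differed clearly between the samples, and the 3 furthest apart were all lower in the Cbs null sample. These were Capn6, a calpain without the catalytic cysteine, at 3.65-fold, the metalloproteinase inhibitor gene Timp1 at 2.76-fold, and Mmp7, which encodes matrilysin, at 2.13-fold. At least 2-fold differences were thus seen for 3 of 36 genes in the lower direction and 0 in the higher. The lower count was 1, Mmp7 alone, with the floor at the 60th percentile, where Capn6 stood at -0.47 and Timp1 at -0.67 in log2 ratio. With probe sets averaged the count was 2 and Capn6 stood at -0.93. Its other probe set, under the floor on both arrays, entered that mean with a log2 ratio of 0. Over all 12393 genes 0.484% were at least 2-fold lower and 0.541% at least 2-fold higher. At 1.5-fold, 4 genes were lower, the fourth being Mmp23, and 3 were higher, namely Mmp11, the cathepsin D gene Ctsd and Anpep. Beside the lower genes, granzyme, smooth muscle and adipocyte markers were lower, as was the decidual gene Prl8a2. Of the 10 uterine stroma and decidua markers with mean signal above the floor, however, 7 were higher. Beside the higher genes the epithelium and macrophage markers were higher. The part of these cells was not tested. The same call was made for 2.29% of all genes in the lower and 2.44% in the higher direction.

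The mean log2 signal was above the floor for 35 of the 36 genes but for only 8170 of all 12393. Among those 8170 genes, 0.661% were at least 2-fold lower and 0.796% at least 2-fold higher, and 3.34% and 3.64% passed 1.5-fold. The median log2 ratio of the 35 genes was -0.06, against 0.02 for the 8170, with 19 of the 35 lower and 16 higher. Their SD was 0.54 against 0.35, and the median size of a log2 ratio regardless of sign was 0.27 against 0.16. Beyond 2 technical SD, a log2 ratio of 0.43, lay 7 of the 35 genes in the lower direction and 4 in the higher. The corresponding shares of the 8170 genes were 6.59% and 7.26%. Because the list was chosen with earlier results of these data known, these comparisons are descriptive only. In a bulk sample, fewer cells of a type and less RNA per cell cannot be told apart.

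**Figure D1:**
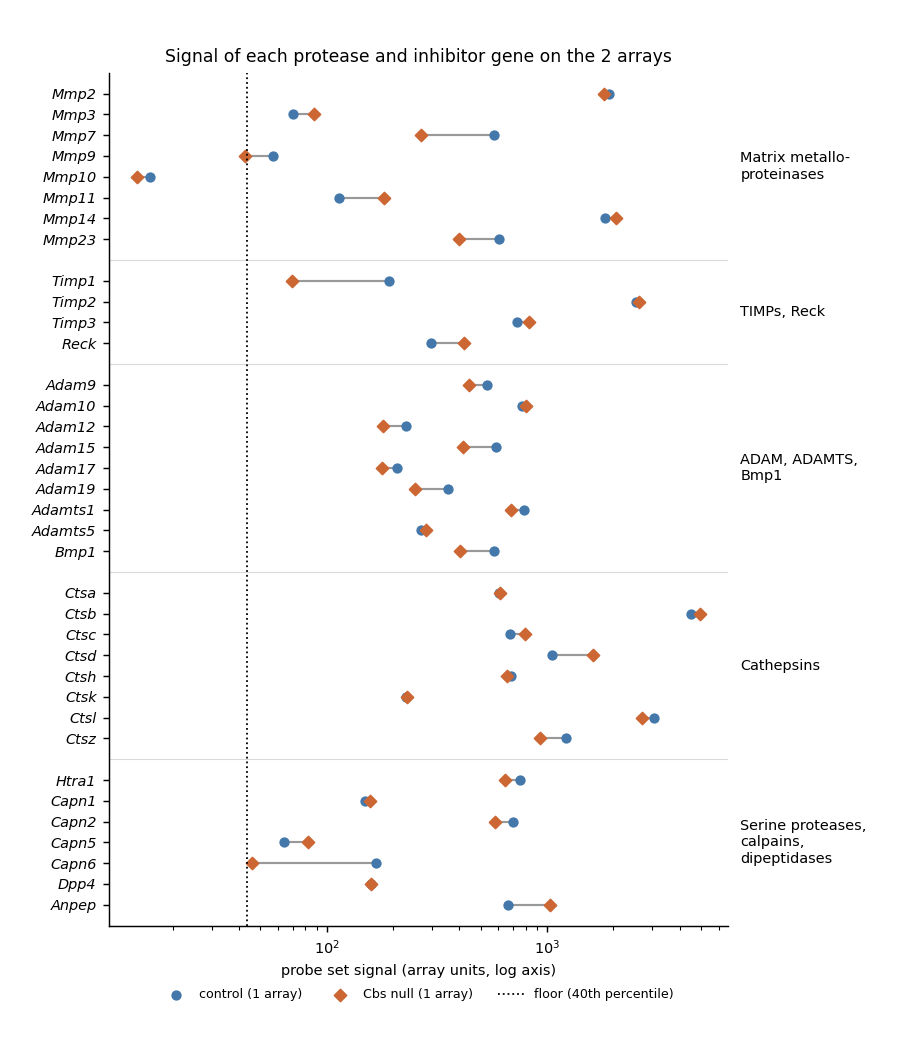
Signals of the brightest probe set of each of the 36 genes on the control array (circles) and the Cbs null array (diamonds), 1 array per group, on a log axis of array units, grouped by class; the dotted line is the floor of 43.2. The widest gaps are those of Capn6 (167 to 45.7), Timp1 (192 to 69.3) and Mmp7 (572 to 269), while most pairs of points lie close together.

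Promoter sequences are given for 5 of the genes. Mmp7, Mmp3 and Mmp10 come from one metalloproteinase cluster on chromosome 9 and are shown for comparison with each other, though only Mmp7 differed 2-fold. Capn6 was the lowest of all members, and Ctsd was the cathepsin furthest apart. The 250 bases before each RefSeq start (mouse assembly GRCm38.p6) were searched on both strands for the AP-1 motif TGANTCA, the E-box CACGTG bound by lysosomal regulators of the TFEB family, and the TATA motif TATAAA. The 130 bases next to the start are printed, from 5′ to 3′ on the strand of the gene, with matches in capitals.

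Mmp7, chr9:7691960-7692089, plus strand, the first of 2 listed starts: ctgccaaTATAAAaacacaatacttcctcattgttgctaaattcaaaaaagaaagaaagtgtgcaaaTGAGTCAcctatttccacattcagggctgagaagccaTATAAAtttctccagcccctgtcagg

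Mmp3, chr9:7445692-7445821, plus strand: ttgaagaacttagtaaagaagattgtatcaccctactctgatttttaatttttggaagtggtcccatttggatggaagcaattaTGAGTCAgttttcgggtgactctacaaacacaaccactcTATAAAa

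Mmp10, chr9:7502212-7502341, plus strand: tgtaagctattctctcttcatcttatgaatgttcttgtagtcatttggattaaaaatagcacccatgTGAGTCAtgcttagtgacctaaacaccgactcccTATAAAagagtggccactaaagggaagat

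Capn6, chrX:143827413-143827542, minus strand: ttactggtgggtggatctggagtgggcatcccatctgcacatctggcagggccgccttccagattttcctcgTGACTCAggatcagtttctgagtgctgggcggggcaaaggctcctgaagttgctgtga

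Ctsd, chr7:142387828-142387957, minus strand: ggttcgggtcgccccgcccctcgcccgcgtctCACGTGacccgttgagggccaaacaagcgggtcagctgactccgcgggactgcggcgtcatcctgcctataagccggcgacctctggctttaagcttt

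The 3 cluster promoters shared an AP-1 motif followed by a TATA motif nearer the start. The AP-1 match began 63 bases before the start in Mmp7 and Mmp10 and 46 bases before it in Mmp3. That TATA match began 26 bases before the start in Mmp7, 29 in Mmp10 and only 7 in Mmp3. Mmp7 held a further TATA match at 123, before its AP-1 match. Capn6 held an AP-1 match 58 bases before its start, and Ctsd an E-box 98 bases before its start and another at 245, outside the printed stretch. Promoters were listed for 27 of the 36 genes. Of these, 6 held an AP-1 motif at any listed start, 6 an E-box and 5 a TATA motif, where 6.75%, 6.02% and 12.4% of all 32851 listed promoters did. A gene with several starts had more than 1 chance to hold a match. Of the 6 metalloproteinase genes with a promoter, 3 held the AP-1 motif, and of the 6 cathepsin genes 3 held the E-box, namely Ctsa, Ctsd and Ctsl. The other genes with an E-box were Adam10, Adam19 and Mmp7, the last at its second listed start, which is not printed. A match describes letters in the sequence and not binding.

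Among the matrix metalloproteinases, Mmp7 and Mmp23 were lower in the Cbs null sample, Mmp11 was higher, and Mmp2 and Mmp14 differed little. Mmp7 encodes matrilysin, a small metalloproteinase made mainly by epithelium. Its single probe set read 572 in the control and 269 in the Cbs null sample, a log2 ratio of -1.09. The uterine epithelium markers were higher in 11 of 11 cases, among them the keratin gene Krt18 at 999 and 1626 and Spink1 at 1234 and 6219. Krt7 was nearly level at 450 and 468. The part of epithelial cells in the Mmp7 signal was not tested. Mmp23 encodes an atypical membrane-anchored metalloproteinase without the usual hemopexin domain. Its probe sets read 607 and 501 in the control and 400 and 330 in the Cbs null sample, both 1.52-fold lower.

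Mmp11 encodes stromelysin-3, which furin activates inside the cell and which cuts few matrix proteins. It read 113 and 181 on its single probe set, a log2 ratio of 0.68. Mmp2, gelatinase A, read 1903 and 1815 on one probe set and 1566 and 1596 on the other, opposite signs of small size. Mmp14, the membrane-type enzyme that activates pro-Mmp2, read 1824 and 2059, and its other probe set read 355 and 384. Neither pair of probe sets left the range of 2 technical SD. Mmp3, of weak signal, also lay within it. The ratio of Mmp9 is only a bound, since it was under the floor in the Cbs null sample.

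The remaining metalloproteinases were weak. Mmp3, stromelysin-1, read 70.4 and 87.4, a log2 ratio of 0.31. Mmp9, gelatinase B, read 57.0 in the control and, under the floor, 42.6 in the Cbs null tissue, lower by at least 1.32-fold, and its other probe set was below the floor on both arrays. Mmp10, stromelysin-2, read 15.8 and 13.8, both below the floor, and has no usable ratio. In RefSeq gene order Mmp3, Mmp7 and Mmp10 belong to a run of 10 neighbouring metalloproteinase genes on chromosome 9, of which 9 had a probe set. Only Mmp3 and Mmp7 of these 9 were above the floor on both arrays, and 7 were below it on both. Mmp10, whose promoter holds the same 2 motifs as that of Mmp7, was among these 7.

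Among the inhibitors, Timp1 was lower in the Cbs null sample while Timp2, Timp3 and Reck were not. Timp1 encodes a soluble inhibitor that also binds pro-Mmp9. Its single probe set read 192 and 69.3, a log2 ratio of -1.47 and the second lowest of all members. Timp2, which blocks metalloproteinases and helps Mmp14 to activate pro-Mmp2, had 6 probe sets, of which 5 were above the floor. The brightest read 2531 and 2612, a log2 ratio of 0.04. The other 4 ranged from -0.57 to 0.15, and the lowest of them, at 1733 and 1165, was the only one outside 2 technical SD. This was the widest spread between probe sets of any member, 0.72 in log2.

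Timp3, an inhibitor held in the extracellular matrix, read 730 and 830 on its brightest probe set. Its 4 probe sets lay between -0.33 and 0.18, the lowest being the weakest at 96.8 and 77.0. Reck, a membrane-anchored inhibitor of several metalloproteinases, read 297 and 421 on its single probe set, 1.41-fold higher. By the brightest probe sets, 1 of the 4 inhibitor genes was lower and 3 were higher, with a median log2 ratio of 0.11. The direction of Timp2 and Timp3 was not shared by their probe sets, and averaged over these Timp2 stood at -0.10.

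**Figure D2:**
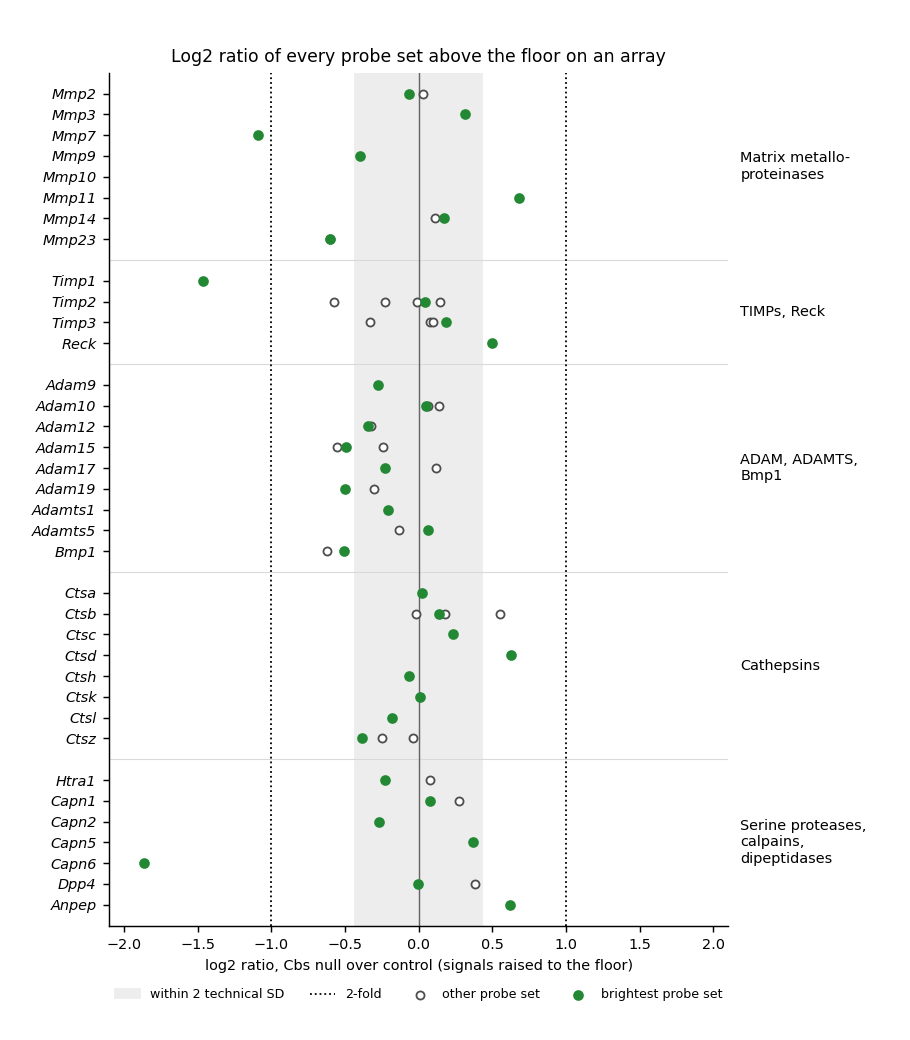
Log2 ratio of Cbs null over control (x axis) for each probe set above the floor on at least 1 array, with the brightest probe set of each gene filled and others open; the grey band spans 2 technical SD (0.43) on either side of 0 and the dotted lines mark 2-fold. Only Capn6, Timp1 and Mmp7 lie beyond a 2-fold line, the points of the 2 Mmp23 probe sets coincide, and Mmp10 has no point because it was below the floor on both arrays.

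The ADAM, ADAMTS and Bmp1 genes were mostly slightly lower in the Cbs null sample, and none reached 1.5-fold. All 9 on the array were above the floor on both arrays, 7 of them lower, with a median log2 ratio of -0.27 against 0.02 for all genes. Among the genes above the floor as a whole, 3778 were lower and 4378 higher. Of the class, 3 lay beyond 2 technical SD, Bmp1, Adam19 and Adam15, and each had more than 1 probe set above the floor, all lower.

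Bmp1 encodes the procollagen C-proteinase, which trims fibrillar procollagens. It read 574 and 403, a log2 ratio of -0.51, and its other probe set above the floor read 72.5 and 47.1, a log2 ratio of -0.62. Adam19, a metalloprotease-disintegrin that can shed neuregulin, read 354 and 251, and its other probe set 65.0 and 52.7, log2 ratios of -0.50 and -0.30. Adam15 read 587 and 417, and its other probe sets above the floor 112 and 76.1, and 62.3 and 52.8. Its 3 log2 ratios ranged from -0.56 to -0.24. These genes thus went the same way in all of their probe sets above the floor on both arrays.

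The main sheddases differed less. Adam10, which cuts Notch receptors among others, read 773 and 799, and its 3 probe sets lay between 0.05 and 0.14 in log2 ratio. Adam17, the sheddase of TNF and of EGF receptor ligands, read 208 and 178 on one probe set and 103 and 112 on another, so its direction was not shared. Adam9 read 533 and 441, a log2 ratio of -0.27. Adam12 read 228 and 179, and its weaker probe set went from 54.1 to below the floor. Adamts1, a versican-cutting enzyme needed for normal ovulation, read 787 and 683, and Adamts5, its neighbour in gene order and a strong aggrecanase, read 268 and 281. Each of these 6 genes lay within 2 technical SD on its brightest probe set.

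Of the cathepsins only Ctsd differed by 1.5-fold, and the class as a whole was not shifted. All 8 were above the floor on both arrays, 5 higher and 3 lower, with a median log2 ratio of 0.02. Ctsd encodes the main aspartic protease of lysosomes, and its single probe set read 1052 and 1623, 1.54-fold higher. Ctsb, a lysosomal cysteine protease, read 4493 and 4938 on its brightest probe set. Of its 4 probe sets, 3 lay between -0.02 and 0.18, and another, at 358 and 525, gave 0.55.

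Ctsc, which activates the granule serine proteases of leukocytes, including granzymes, read 679 and 796, a log2 ratio of 0.23. Ctsl, a cysteine protease expressed in uterus and placenta, read 3042 and 2688, a log2 ratio of -0.18. Ctsz, a carboxypeptidase, read 1213 and 930, a log2 ratio of -0.38, and its other probe sets gave -0.25 and -0.03. Ctsa, which protects lysosomal glycosidases, read 604 and 612. Ctsh read 689 and 659, and the collagen-degrading Ctsk read 229 and 231. The log2 ratios of these last 3 genes ran from -0.06 to 0.02.

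Macrophage and dendritic markers, cells rich in lysosomal proteases, were higher beside the higher Ctsd signal. Of 13 markers with mean signal above the floor 12 were higher, with a median log2 ratio of 0.52. H2-Aa read 1548 and 2126, Cd74 1211 and 1701, Lyz2 771 and 1272, and Csf1r 669 and 1026. Itgam was below the floor on both arrays. The uterine epithelium markers were also higher, 11 of 11, with a median log2 ratio of 0.70. Of the 8 cathepsin genes of the class, 5 were higher and 3 lower. The part of either cell type in the Ctsd signal was not tested.

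Among serine proteases, calpains and dipeptidases, Capn6 was lower and Anpep higher in the Cbs null sample. Capn6, which is thought to act on microtubules and not as a protease, read 167 in the control and 45.7, close to the floor, in the Cbs null sample, a log2 ratio of -1.87. Its other probe set, at 30.4 and 5.6, lay under the floor on either array and gives no usable ratio. The catalytic calpains did not share this difference. Capn2, the large subunit of m-calpain, read 701 and 581, a log2 ratio of -0.27. Capn1, that of mu-calpain, read 149 and 157, and its other probe set 69.4 and 84.1. Capn5 was weak at 63.9 and 82.5, a log2 ratio of 0.37, and its other probe set was below the floor on both arrays.

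Anpep encodes aminopeptidase N, a surface enzyme that removes single amino acids from peptides. It read 668 and 1029 on its single probe set, 1.54-fold higher. Dpp4, the surface dipeptidyl peptidase also known as CD26, read 160 and 159, while its weaker probe set went from below the floor to 56.2. Htra1, a secreted serine protease of the matrix, read 755 and 645 on one probe set and 595 and 630 on another. The direction of Htra1 was therefore not shared by its probe sets. Anpep went the way of the epithelium and macrophage markers, and their part in its signal was not tested.

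**Figure D3:**
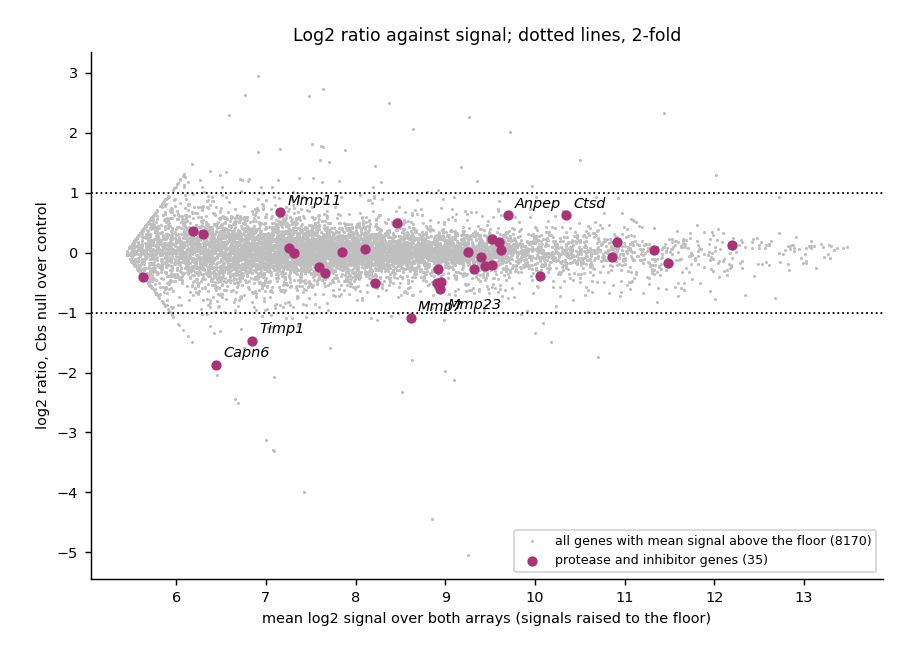
Log2 ratio of Cbs null over control (y axis) against mean log2 signal (x axis) for the 8170 genes with mean signal above the floor (grey) and the 35 protease and inhibitor genes among them (purple), with the 7 genes at least 1.5-fold apart named. Capn6, Timp1 and Mmp11 are genes of weaker signal on the left of the plot, where grey points scatter widely, while Mmp7, Mmp23, Ctsd and Anpep lie further right.

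Where a gene had more than 1 probe set above the floor on both arrays, as 15 of the 36 did, all of them went the same way in 8 genes and not in 7. The median spread between the probe sets of a gene was 0.20 in log2. Using the brightest probe set and the next, the technical SD was 0.13 for these 15 genes, and 11 of 15 pairs had the same sign. Of the 7 genes at least 1.5-fold apart, only Mmp23 had another probe set above the floor on both arrays. Timp1, Mmp7, Mmp11, Ctsd and Anpep rested on the only probe set on the array, and Capn6 on 1 of 2.

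Other genes of the same system were taken from 6 lists with 72 genes, of which 61 were on the array and 37 had mean signal above the floor. Of the 61, 4 were at least 1.5-fold lower and 3 at least 1.5-fold higher, 1 of them 2-fold, beside the 2.29% and 2.44% of all genes. Their median log2 ratio was 0.03, with 16 of 37 lower. The lists were chosen with earlier results of these data known.

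Pcolce, the procollagen C-proteinase enhancer that speeds up Bmp1, was lower in both of its probe sets, at 2163 and 1096 and at 843 and 361. These were 1.97-fold and 2.34-fold lower, next to 1.42-fold for Bmp1 itself. The Bmp1 relative Tll1 went from below the floor to 91.5, at least 2.12-fold higher. The metalloproteinase genes Mmp17 and Mmp19 read 165 and 107, and 95.4 and 61.3, but the other Mmp19 probe set read 51.9 and 49.3. Mmp16 went from just below the floor to 65.7, at least 1.52-fold higher. Adam33, a gene of smooth muscle and stroma, read 158 and 102, 1.55-fold lower. Smooth muscle markers were lower in 9 of 9 cases, with Acta2 at 9826 and 9373 and Actg2 at 5388 and 3166, and their part in these values was not tested.

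The 5 other cathepsin and legumain genes above the floor were all higher in the Cbs null sample, with a median log2 ratio of 0.46. Over all genes with mean signal above the floor, 4378 of 8170 were higher, with a median of 0.02. Ctse, an aspartic protease of epithelia and immune cells, read 606 and 981, 1.62-fold higher, but 53.9 and 54.7 on its other probe set. Ctss, the cysteine protease of antigen-presenting cells, picked out after its value was seen, read 286 and 402, while Ctsk, its neighbour in gene order, had a log2 ratio of 0.01. The inhibitors of cathepsins and calpains differed little, with Cst3, the secreted cystatin C, at 2958 and 2746 and Cstb, the intracellular cystatin B, at 1673 and 1711. The remaining serine and dipeptidyl proteases lay between -0.20 and 0.42. Among them Htra3 read 1713 and 1614 on its brightest probe set, and Prss23 1033 and 1382. The lists that stood furthest from 0 were thus small, of 3 genes for the other metalloproteinases and 5 for the other cathepsins.

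**Figure D4:**
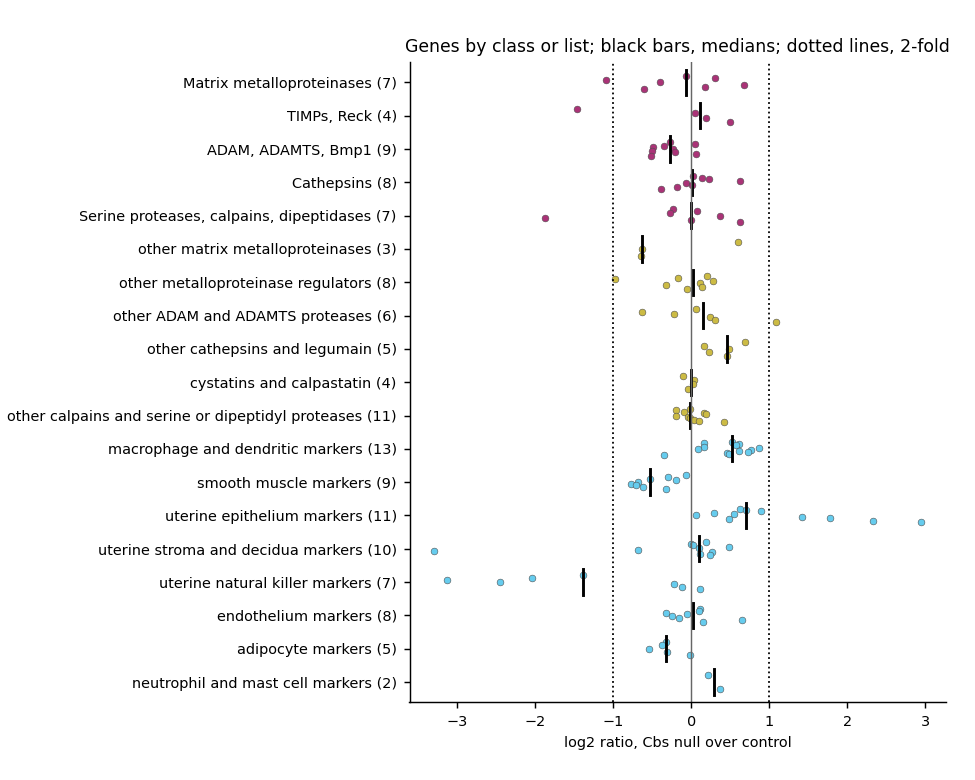
Log2 ratio of Cbs null over control for genes with mean signal above the floor, by class of the protease and inhibitor genes (purple), list of other protease system genes (yellow) and cell type marker list (blue), with black bars at medians, the number of genes in brackets and dotted lines at 2-fold. The purple class medians run from -0.27 for the ADAM, ADAMTS and Bmp1 genes to 0.11 for the inhibitors, a narrower range than that of the marker lists.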

How the data were processed

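Biotinylated cRNA from 2 microg of each of 2 total RNA samples was put on the arrays, per the labels' protocols. The deposited table holds 1 linear intensity per probe set and array, and the submitters' processing notes name GCOS version 1.4. How probes were summarised and scaled is not stated in the labels or the file. The 2% trimmed means, 200.08 and 200.07, were alike, so the deposited signals were used unchanged.

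Of 22690 probe sets 64 were Affymetrix controls and 20380 had 1 gene symbol in the platform annotation, 20351 of them matched to RefSeq genes. The probe set whose mean log2 signal was highest stood for its gene. Signals were raised to the floor at the 40th percentile, and a gene entered medians when its mean log2 signal was at or above it. The number of arrays limits the precision. The members and lists were chosen with earlier results of these data known; every member is named, and of other lists genes at least 1.5-fold apart or else the 2 brightest. Alternatives were 2 other scalings, a pseudocount of 16, a floor at the 20th or the 60th percentile, means over probe sets, leaving out _s_at and _x_at probe sets, and a stricter filter. Python 3.11.15, numpy 2.4.6 and pandas 2.3.3 were used, and the calculation was tested on simulated data.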

Additional observations from a re-analysis of the deposited data

How the results depend on the processing

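With the floor at the 60th percentile, 120 signal units, 1 member was at least 2-fold lower in place of 3, since both Timp1 (-0.67) and Capn6 (-0.47) are then measured against that higher floor. With probe sets of a gene averaged, 2 members were at least 2-fold lower, Capn6 standing at -0.93. Its other probe set, under the floor on both arrays, entered that mean with a log2 ratio of 0. With a pseudocount in place of the floor Capn6 stood at -1.57 and 3 members were at least 1.5-fold lower, without Mmp23. The share of lower genes among those 1.5-fold apart was 57.1%, the same under either other scaling, and 3 lower against 3 higher with the higher floor and with the pseudocount. The counts of higher members, 0 at 2-fold and 3 at 1.5-fold, were the same under the 7 alternatives run on them, and the median log2 ratio of members stayed between -0.09 and -0.03 under 8. Of 252 single gene values recomputed, 245 moved by less than the technical SD, and no member at least 1.5-fold apart changed direction. No paired analysis was possible because each group has 1 array. No replicate can be left out for the same reason. Genes near the floor, such as Mmp9, Mmp3 and Capn5, have ratios that weak signal limits.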
